A study of Rattus norvegicus with 18 samples.

Results

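The genes described here encode the proteins of the mitochondrial ribosome. They were taken as every row of the deposited expression table whose name starts with Mrpl or Mrps, which gave 69 of 17303 rows, 41 named Mrpl and 28 named Mrps. The table measured polyadenylated RNA in ventricular cardiomyocytes isolated from Wistar rats at postnatal day 3 and kept in culture. Dividing cells were removed with AraC for 48 h, serum was withdrawn for 24 h, and treatment then lasted 48 h with a change of medium at 24 h. All groups share these steps. The 6 groups of 3 libraries were Vehicle, phenylephrine (PE) at 10 µM, PE with Senexin A at 10 µM (PE+SenA10) or 50 µM (PE+SenA50), and Senexin A alone at 10 µM (SenA10) or 50 µM (SenA50). PE is an agonist of alpha1-adrenergic receptors that makes cultured cardiomyocytes grow, and Senexin A is an inhibitor of the Mediator kinase CDK8. The comparisons ask what PE did to these transcripts, what the inhibitor did at each dose with and without PE, and whether the PE response differed when the inhibitor was present. Nothing in the labels ties replicates to separate cultures or animals, and a p-value here measures only how far these libraries spread, which may be technical.

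Mitochondria carry their own ribosome, which makes the few proteins encoded in mitochondrial DNA, all of them subunits of the respiratory chain or of ATP synthase. Its proteins are encoded in the nucleus, made in the cytosol and imported, and they assemble on ribosomal RNA from mitochondrial DNA into a large and a small subunit. Some have counterparts in bacterial ribosomes, and others are found in mitochondrial ribosomes alone. The heart depends on respiration, and mutations in several of these genes cause cardiomyopathy in humans.

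Of the 69 genes, 43 encode proteins of the large subunit and 25 proteins of the small subunit. Mrps18a and Mrps30 are among the 43, because their proteins sit in the large subunit despite the name. The remaining gene, Mrps36, carries a mitoribosomal name, but its protein belongs to the 2-oxoglutarate dehydrogenase complex of the citric acid cycle. A filter of at least 1 FPKM (fragments scaled by transcript length and library size) in at least 3 libraries left 67 genes for testing, 41 of the large and 25 of the small subunit plus Mrps36. Mrpl36, which encodes a small protein of the large subunit, was listed at 0.01 FPKM, the smallest value in the table, in all 18 libraries. Mrpl1, a protein of the ribosome's L1 stalk, ran from 0.01 to 0.3994 FPKM, and neither was tested. A further 3 rows written in lower case (mrpl9, mrpl11 and mrpl24) lie outside the naming rule and are given separately, and Mrps6 was not analysed here. The loci of 5 tested genes overlap another row (Mrpl13 with Mtbp, Mrpl47 with Actl6a, Mrps18a with Rsph9, Mrps2 with RGD1306233, Mrps7 with Gga3). Whether reads were assigned by strand is not given in the sources used here, so the values of those 5 are uncertain.

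Library totals are known only through FPKM. The FPKM sums ran from 610324 to 660958 in Vehicle, from 810428 to 853958 in PE and up to 910958 with PE and inhibitor. Relative depth, estimated from the steps between the lowest values against Vehicle replicate 2, ran from 0.833 to 1.11, and absolute depth is unknown. The summed level of 7 cardiomyocyte markers ran from 30779 to 94212 FPKM over the libraries, led by Myl2. Markers of other cells were present in different amounts: the 8 fibroblast markers summed to 1757 to 3054 FPKM in Vehicle, 1172 to 1938 in PE, 852 to 1735 in PE+SenA10, 612 to 1213 in PE+SenA50, 1647 to 3186 in SenA10 and 963 to 1321 in SenA50, with Col1a2 at or near 0.01 FPKM in every library. The 7 endothelial markers summed to 1.09 to 7.72 FPKM. The 6 macrophage markers summed to 16.6 to 390 FPKM, with Cd163 at or near 0.01 FPKM. The 6 markers of smooth muscle cells and pericytes summed to 505 to 1675 FPKM, led by Des, which heart muscle also expresses. In bulk RNA, fewer cells of a type and less RNA per cell cannot be told apart.

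The transcripts of the mitochondrial ribosome were for most genes lowest in untreated cells. The Vehicle mean was the lowest of the 6 group means for 58 of the 67 tested genes, and no gene had its highest mean in Vehicle or in PE. The highest mean was in SenA50 for 31 genes, in PE+SenA50 for 23, in PE+SenA10 for 12 and in SenA10 for 1. Relative to Vehicle, the median ratio of group means was 1.223 in PE, 1.183 in SenA10, 1.46 in PE+SenA10, 1.63 in PE+SenA50 and 1.647 in SenA50. The summed level of all 69 genes was 3276 to 3646 FPKM in Vehicle, 4063 to 4493 in PE, 3977 to 4501 in SenA10, 4920 to 5725 in PE+SenA10, 5340 to 6452 in PE+SenA50 and 5419 to 6167 in SenA50. As a share of each library's FPKM sum the order was not the same: 0.537% to 0.567% in Vehicle and 0.501% to 0.526% in PE, so that the share was lower with PE in every library although the summed level was higher. The share was 0.568% to 0.603% in SenA10, 0.586% to 0.628% in PE+SenA10, 0.676% to 0.719% in PE+SenA50 and 0.715% to 0.746% in SenA50. The balance of the subunits moved little, with a ratio of summed large-subunit to small-subunit FPKM between 1.83 and 1.96 in all 18 libraries.

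**Figure D1:**
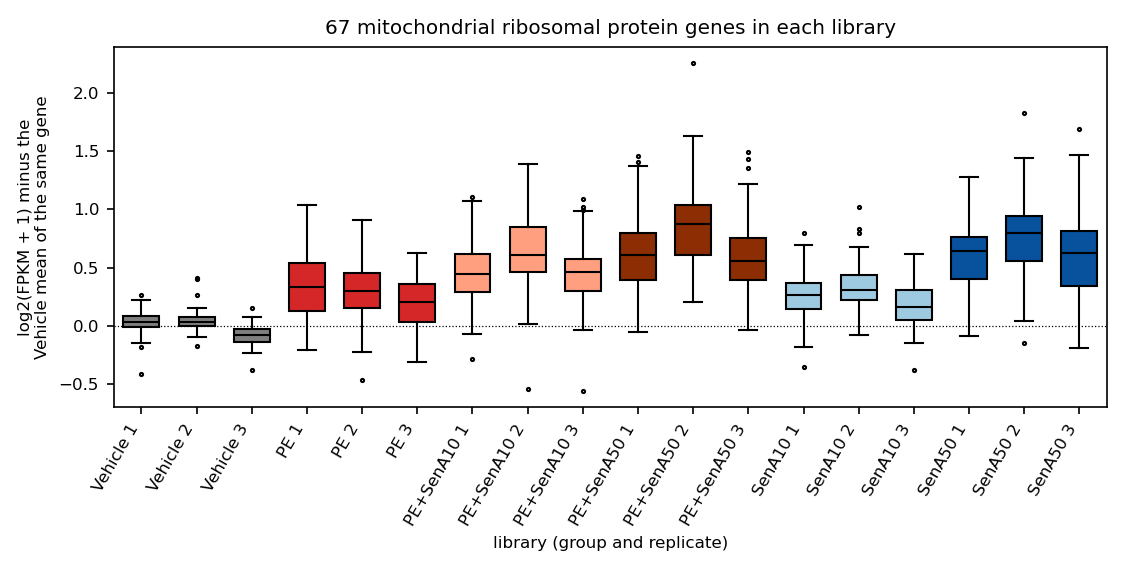
Level of the 67 tested genes in each library, as log2(FPKM + 1) minus the Vehicle mean of the same gene (vertical axis), with libraries by group and replicate along the horizontal axis. Boxes span the quartiles with the median as a line, whiskers reach the farthest gene within 1.5 box lengths, and points are genes beyond them. The medians of the PE, SenA10, PE+SenA10, PE+SenA50 and SenA50 libraries all lie above those of the 3 Vehicle libraries.

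Levels differed widely between genes on this length-scaled measure. The highest mean over all libraries was that of Mrpl54, a protein found in the mitochondrial large subunit, at 183 FPKM. Mrps21, the counterpart of bacterial S21, followed at 181 FPKM, and Mrpl13 at 162 FPKM. At the other end stood Mrpl30 at 1.03 FPKM, Mrps28 at 4.98 FPKM and Mrps35 at 22.1 FPKM. Mrpl30 was thus close to the filter, and its log2(FPKM + 1) differences understate its relative change.

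Senexin A at 50 µM without PE raised nearly the whole set. Of the 67 tested genes, 62 rose and none fell in SenA50 against Vehicle (limma, Benjamini-Hochberg adjusted p under 0.05 over 10478 genes), where 30.5% of all tested genes rose and 30.2% fell. The median difference was 0.70 on the log2(FPKM + 1) scale, against -0.01 over all tested genes. The count ran from 58 to 63 when single libraries were left out, and after quantile normalization 55 rose and 1 fell. Of the 7 fibroblast markers tested, 2 fell in SenA50 against Vehicle and none rose, with the summed levels given above. In the same comparison 1 of 3 endothelial and 1 of 6 smooth muscle and pericyte markers fell, and 0 of 4 macrophage markers were called. Of 7 cardiomyocyte markers 2 rose and 1 fell. The part of these markers in the result was not tested.

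The largest rise was that of Mrps10, a small-subunit protein with a bacterial counterpart (rn5 chr9:14558417-14572144). Its levels were 16.8, 30.6 and 22.8 FPKM in Vehicle and 39.4, 83.4 and 75.7 FPKM in SenA50. All 3 treated libraries lay above all 3 untreated ones, but the spread within SenA50 was wide, with replicate 1 far below the other two. The difference was 1.43 ± 0.31 (SE, limma adjusted p = 0.00084). Mrpl38, a protein found in the mitochondrial large subunit alone (chr10:103596442-103603249), stood at 26.9, 23.7 and 25.4 FPKM in Vehicle and at 53.3, 70.2 and 71.3 FPKM in SenA50, a difference of 1.31 ± 0.097 (limma adjusted p = 2.1e-08). The groups were far apart and the Vehicle libraries close together. Mrpl37, of the same class (chr5:130507126-130517627), went from 55.1, 56.4 and 48.8 FPKM to 119, 133 and 129 FPKM (1.24 ± 0.075, limma adjusted p = 3.5e-09). Mrpl55, the counterpart of bacterial L31 in the large subunit (chr10:45308879-45312028), went from 23.1, 23.6 and 24.8 FPKM to 59.2, 60.8 and 51.7 FPKM (1.23 ± 0.10, limma adjusted p = 5.6e-08). Mrps18b, one of several mitochondrial relatives of bacterial S18 (chr20:5442392-5448452), went from 60.4, 57.0 and 55.0 FPKM to 129, 139 and 134 FPKM (1.21 ± 0.064, limma adjusted p = 1.2e-09). In each of these 3 genes the lowest treated library lay far above the highest untreated one.

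**Figure D2:**
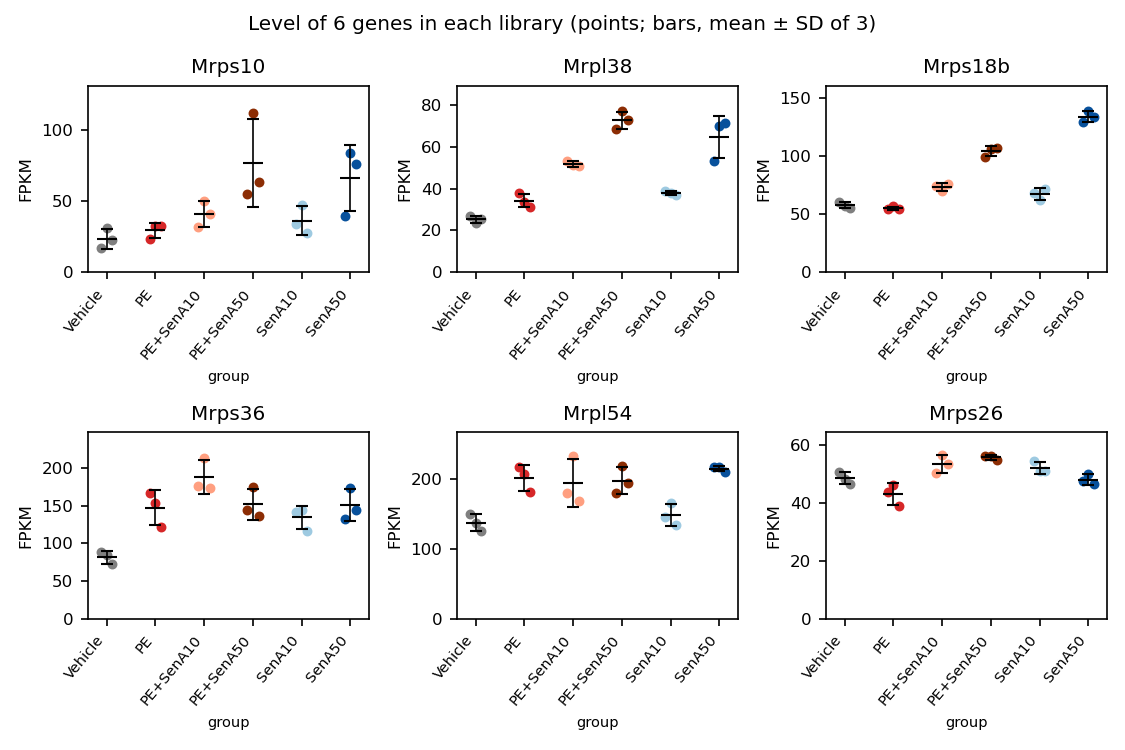
FPKM (vertical axes, starting at 0) of 6 genes in each library, by group (horizontal axes). Points are single libraries and bars give the mean ± SD of 3. Mrps10, Mrpl38 and Mrps18b are highest in the groups with 50 µM Senexin A, all PE, SenA50 and PE+SenA50 libraries of Mrps36 and Mrpl54 lie above all their Vehicle libraries, and Mrps26 lies between 39.0 and 56.7 FPKM throughout.

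The 5 genes that did not pass at 50 µM were Mrpl18, Mrpl30, Mrpl49, Mrpl50 and Mrps26, some of them named after their values were seen. Mrpl18, of the large subunit, had 0.30 ± 0.13 (limma adjusted p = 0.055, and 0.0092 with replicate number as a block), and its groups did not overlap. Mrps26, a small-subunit protein, differed by -0.02 (95% interval -0.16 to 0.13), and Mrpl49, of the large subunit, by -0.04 (-0.35 to 0.27). These intervals lie below the median rise of the set.

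At 10 µM without PE the rise was smaller. Of the 67 genes, 23 rose and none fell in SenA10 against Vehicle, where 9.17% of all tested genes rose and 7.01% fell. The median difference was 0.23, against -0.01 over all tested genes. With replicate number as a block 41 rose and none fell, and the count fell to 15 without Vehicle replicate 3 or SenA10 replicate 1 and to 14 without SenA10 replicate 2. Mrps36, the dehydrogenase subunit, rose most, by 0.71 ± 0.14 (limma adjusted p = 0.0029), from 88.4, 83.8 and 71.8 FPKM to 141, 145 and 116 FPKM. Mrpl12, the stalk protein that binds translation factors on the large subunit (chr10:109251299-109255803), went from 78.5, 75.2 and 66.4 FPKM to 119, 128 and 113 FPKM (0.70 ± 0.12, limma adjusted p = 0.001). For both genes all treated libraries lay above all untreated ones. Mrpl42 rose by 0.62 ± 0.14 (limma adjusted p = 0.0082), Mrpl38 by 0.57 ± 0.097 (0.001) and Mrpl3, a large-subunit protein near the catalytic centre, by 0.51 ± 0.10 (0.0036). Of the cell markers, 4 of 7 for cardiomyocytes and 1 of 6 for smooth muscle cells and pericytes rose in SenA10 against Vehicle. No marker of the other lists was called, and the part of the markers in the result was not tested.

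Without PE, most genes were higher at the larger dose of the inhibitor. Between SenA50 and SenA10, 46 of 67 genes were higher at 50 µM and none lower, where 25.4% of all tested genes were higher and 24.9% lower, and the median difference was 0.41. In the presence of PE, 23 genes were higher and 1 lower in PE+SenA50 than in PE+SenA10, where 21.3% of all tested genes were higher and 19.9% lower, with a median difference of 0.17. That count, 24 in all, became 15 without PE+SenA10 replicate 1, 14 without PE+SenA10 replicate 3 and 15 without PE+SenA50 replicate 2. The gene that was lower was Mrpl50, a large-subunit protein found in mitochondria, at 33.6, 41.1 and 35.8 FPKM with 10 µM and 28.2, 32.9 and 26.0 FPKM with 50 µM. Its libraries did not overlap (-0.33, limma adjusted p = 0.016), and the call was lost without PE+SenA10 replicate 2 (adjusted p = 0.081) or PE+SenA50 replicate 3 (0.076).

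PE alone raised about as many genes as it left without a call. In PE against Vehicle 32 of 67 genes rose and none fell, where 17.9% of all tested genes rose and 12.7% fell. The median difference was 0.28, against -0.01 over all tested genes. The count was 21 without Vehicle replicate 3 and 21 without PE replicate 1. After quantile normalization 23 rose and 4 fell. FPKM sums were higher in PE than in Vehicle, and so were the summed cardiomyocyte markers (76782 to 94212 against 31759 to 45698 FPKM). Most of that sum was Myl2, with a mean of 29979 FPKM in Vehicle and 69505 FPKM in PE. Of the 7 cardiomyocyte markers 4 rose and 1 (Pln) fell, and 3 of 6 smooth muscle and pericyte markers rose. None of the 7 tested fibroblast markers was called, nor any endothelial or macrophage marker. The part of each in the result was not tested.

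The largest PE rise was that of Mrps36 (chr2:49899208-49906993), from 88.4, 83.8 and 71.8 FPKM in Vehicle to 167, 153 and 121 FPKM in PE (0.84 ± 0.14, limma adjusted p = 0.00035). Mrps18a, of the large subunit (chr9:16120948-16150048), went from 74.96, 68.6 and 60.1 FPKM to 122, 122 and 99.2 FPKM (0.74 ± 0.13, limma adjusted p = 0.0004). In both genes replicate 3 was the lowest library of each group, and the groups did not overlap. Mrps22, a small-subunit protein particular to mitochondria (chr8:106047828-106060998), went from 43.3, 44.4 and 38.9 FPKM to 67.5, 67.3 and 64.99 FPKM (0.65 ± 0.11, limma adjusted p = 0.00041). Mrps27, an RNA-binding protein of the small subunit (chr2:48760335-48828144), went from 19.2, 20.4 and 23.3 FPKM to 31.9, 34.4 and 32.7 FPKM (0.64 ± 0.11, limma adjusted p = 0.00043). Mrps11, a counterpart of bacterial S11 (chr1:141453418-141462799), went from 33.0, 31.0 and 27.2 FPKM to 46.3, 51.0 and 45.4 FPKM (0.63 ± 0.10, limma adjusted p = 0.00035). Of the genes named above for 50 µM alone, a comparison that shares the Vehicle libraries, Mrps10 with PE differed by 0.33 ± 0.31 and Mrpl55 by 0.06 ± 0.10 (limma adjusted p = 0.45 and 0.69), while Mrpl37 rose by 0.61 ± 0.075 (2.5e-05) and Mrpl38 by 0.42 ± 0.097 (0.0037).

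Added to PE, Senexin A raised the set further. In PE+SenA50 against PE 43 genes rose and none fell, where 29.3% of all tested genes rose and 27.4% fell, with a median difference of 0.41 against 0.00 over all tested genes. At 10 µM, in PE+SenA10 against PE, 27 rose and none fell, where 9.13% of all tested genes rose and 7.84% fell, with a median of 0.24 against 0.01. The count at 10 µM was 41 with replicate number as a block. Leaving out PE replicate 2 gave 16, PE replicate 3 gave 13, PE+SenA10 replicate 1 gave 16 and PE+SenA10 replicate 2 gave 12. No library left out at 50 µM took the count below 39. With 50 µM on PE, 2 of 7 tested fibroblast markers, 2 of 3 endothelial markers and 1 of 6 smooth muscle and pericyte markers fell, 0 of 4 macrophage markers were called, and 2 of 7 cardiomyocyte markers rose and 2 fell. With 10 µM on PE, 3 of 7 cardiomyocyte markers and 1 of 6 smooth muscle and pericyte markers rose and no marker of the other lists was called. Their part in the result was not tested.

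At 50 µM with PE, Mrps10 reached 54.9, 112 and 63.2 FPKM against 22.9, 32.2 and 32.7 FPKM in PE (1.31 ± 0.31, limma adjusted p = 0.0019). Replicate 2 was by far the highest of the 3 treated libraries. Mrpl30, the gene with the lowest level, stood at 0.483, 0.493 and 0.519 FPKM in PE and at 3.42, 2.70 and 1.98 FPKM in PE+SenA50. Beyond the 3 PE+SenA50 libraries it reached 1 FPKM only in Vehicle replicate 2 and SenA50 replicate 1, so it passed the filter only through the group where it is high. Its difference of 1.29, or 2.19 with a pseudocount of 0.1, is therefore a description, although the gene is among those counted as called here and against PE+SenA10. Mrpl55 rose by 1.10 ± 0.10 (limma adjusted p = 2e-07), Mrpl38 by 1.07 ± 0.097 (2.1e-07) and Mrps18b by 0.91 ± 0.064 (1.9e-08). These 3 and Mrps10 were also among the 5 largest rises without PE, in libraries that the comparison with PE does not use. At 10 µM with PE the largest rises were smaller: Mrpl38 by 0.59 ± 0.097 (limma adjusted p = 0.00096), Mrps16, a counterpart of bacterial S16, by 0.56 ± 0.12 (0.0048), Mrpl55 by 0.55 ± 0.10 (0.0017), Mrpl42 by 0.53 ± 0.14 (0.018) and Mrpl12 by 0.52 ± 0.12 (0.0075). The call for Mrpl42 was lost without PE replicate 2 (adjusted p = 0.055), PE replicate 3 (0.061) or PE+SenA10 replicate 2 (0.09).

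The response to the inhibitor could be read with and without PE, in libraries that the readings do not share. Of the 43 genes that rose at 50 µM with PE and the 62 that rose at 50 µM without it, 41 were in both lists, 95.35% of the first and 66.13% of the second, where 92.54% of all 67 genes were in the second list and most of any list would be shared. At 10 µM, 18 genes were in both lists, 66.67% of the 27 that rose with PE and 78.26% of the 23 that rose without it, which are 34.33% of all 67. PE could be read in the same way. It raised 32 genes without inhibitor and 31 in PE+SenA10 against SenA10, where 18.9% of all tested genes rose and 13.6% fell, and 27 were in both lists (84.38% and 87.1%, where the 31 are 46.27% of all 67). The count of 31 was 19 without PE+SenA10 replicate 2.

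**Figure D3:**
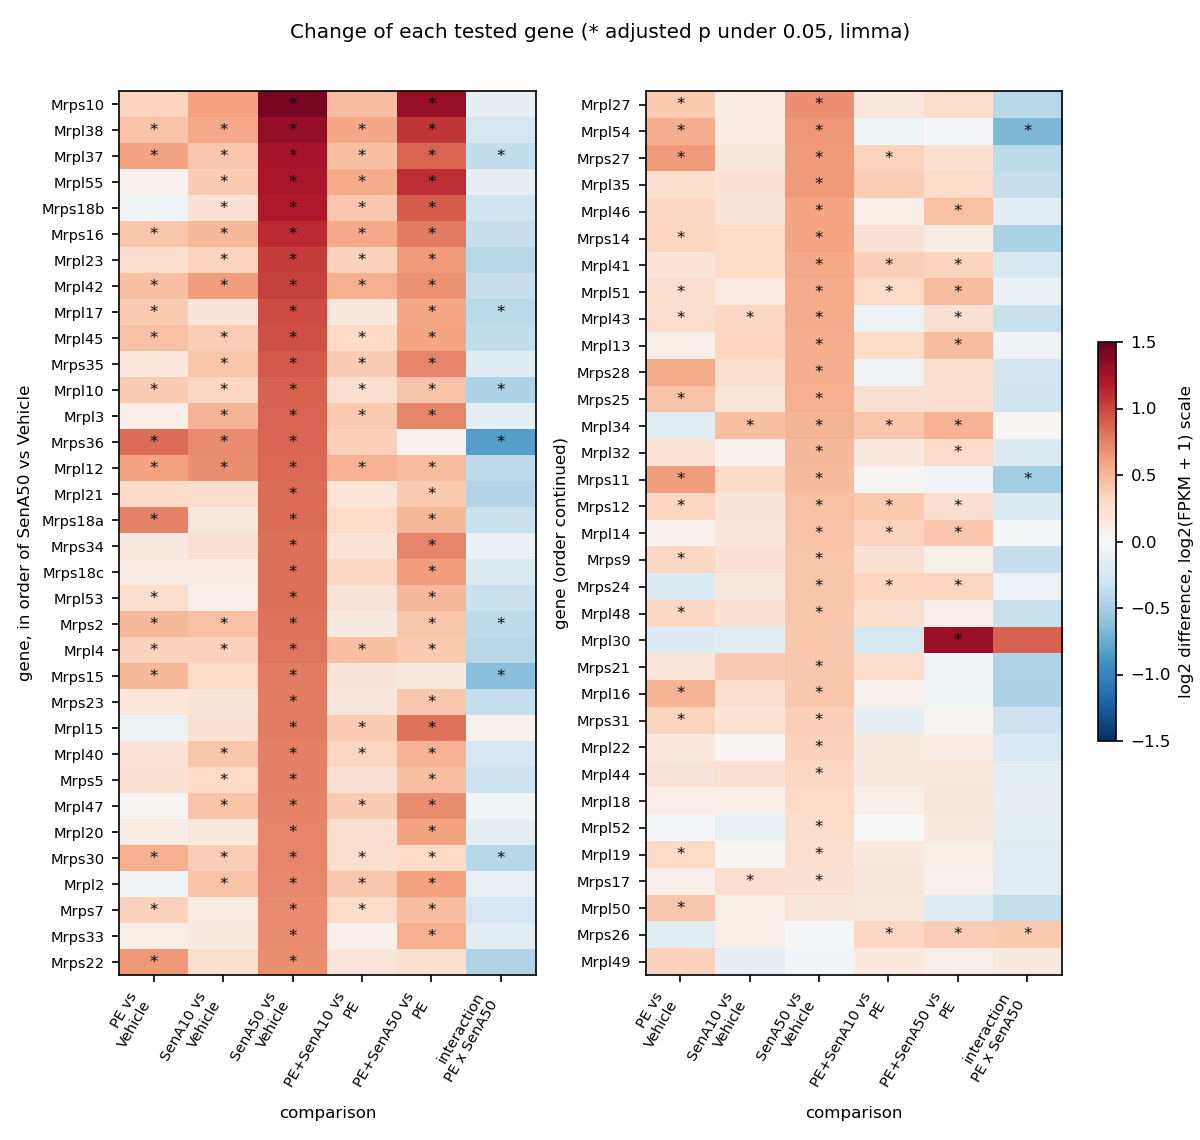
Difference on the log2(FPKM + 1) scale (colour) for each of the 67 tested genes (rows, in order of SenA50 against Vehicle, in 2 columns of panels) in 5 comparisons and in the interaction of PE with 50 µM Senexin A. An asterisk marks a limma adjusted p under 0.05; in the 5 comparisons every asterisk stands on a positive difference, 62 of them in SenA50 against Vehicle, and in the interaction 9 of 10 stand on a negative one.

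With 50 µM Senexin A present, PE changed few of these genes. In PE+SenA50 against SenA50 the median difference was -0.01, against 0.01 over all tested genes, and 5 of the 67 genes were called. Those higher were the 4 genes Mrpl37, Mrpl49, Mrps18a and Mrps26 (limma adjusted p from 0.037 to 0.047), some of them named after their values were seen, where 9.31% of all tested genes rose and 5.01% fell. The 1 lower was Mrps18b, at 99.0, 106 and 107 FPKM with PE and 129, 139 and 134 FPKM without it (-0.36 ± 0.064, limma adjusted p = 0.0012), and the groups did not overlap. The total was 8 (5 higher, 3 lower) with the replicate block, 3 (2 higher, 1 lower) with no filter and likewise with median-ratio scaling, 7 (3 higher, 4 lower) after quantile normalization and 1 (lower) in the compared groups only. It was 1 without PE+SenA50 replicate 1, PE+SenA50 replicate 2 or SenA50 replicate 3, and 2 without SenA50 replicate 1.

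The difference between the 2 PE responses was tested as an interaction. At 50 µM it was negative for 9 genes and positive for 1, where 4.76% of all tested genes were negative and 2.24% positive, and its median was -0.29 against 0.03 over all tested genes. At an unadjusted p under 0.05 it was negative for 30 genes and positive for 2. With the replicate block 30 genes were called negative and 1 positive. The total of 10 called was 6 with no filter and when only the compared groups were fitted. It was 5 without Vehicle replicate 2, 3 without Vehicle replicate 3, PE replicate 1, PE replicate 2 or PE+SenA50 replicate 3, 1 without PE+SenA50 replicate 1, 21 without PE+SenA50 replicate 2, 4 without SenA50 replicate 2 and 5 without SenA50 replicate 3. At 10 µM the median interaction was -0.02 and limma called no gene (0.0668% of all tested genes were called positive and 0.239% negative), with 1 gene higher and 3 lower at an unadjusted p under 0.05 and none called with the block.

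The most negative value was that of Mrps36, whose PE rise of 0.84 without inhibitor stood against 0.02 with 50 µM (interaction -0.82 ± 0.20, limma adjusted p = 0.021). It stood at 132, 174 and 145 FPKM in SenA50 and at 144, 175 and 136 FPKM in PE+SenA50, which overlap throughout. The interaction of Mrpl54, which is particular to the mitochondrial large subunit (chr7:11488464-11490985), was -0.67 ± 0.16 (limma adjusted p = 0.022). Its libraries were 150, 137 and 125.2 FPKM in Vehicle, 217, 207 and 181 in PE, 218, 218 and 210 in SenA50 and 181, 218 and 195 in PE+SenA50. All libraries with either agent or both at these doses lay above Vehicle, and those with both overlapped those with each alone. Mrps15, an RNA-binding small-subunit protein with a bacterial counterpart (chr5:147824052-147834646), had 29.5, 32.8 and 27.9 FPKM in Vehicle, 44.6, 44.8 and 38.9 in PE, 50.6, 53.8 and 52.0 in SenA50 and 43.5, 55.6 and 44.0 in PE+SenA50 (-0.63 ± 0.14, limma adjusted p = 0.016). Its call held in each fit that left out a library. Mrps30 had -0.43 ± 0.11 (limma adjusted p = 0.026), and the remaining negative calls, named after their values were seen, were Mrps11, Mrpl10, Mrpl17, Mrps2 and Mrpl37, from -0.51 to -0.36.

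Single libraries decided several of these calls. That for Mrps36 was lost without Vehicle replicate 3, PE replicates 1 or 2, PE+SenA50 replicates 1 or 3, or SenA50 replicate 2 (adjusted p from 0.053 to 0.061). That for Mrpl54 was lost without Vehicle replicate 3, PE replicates 1 or 2 or PE+SenA50 replicate 1 (0.053 to 0.063). That for Mrps30 was lost in the compared groups only (0.058) and without Vehicle replicates 2 or 3, PE replicates 1 or 2, PE+SenA50 replicates 1 or 3, or SenA50 replicate 2 (0.055 to 0.071). With the replicate block their adjusted p-values were 0.00069, 0.0017 and 0.0026.

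Mrps26 was the exception in the other direction. It stood at 50.9, 48.5 and 46.8 FPKM in Vehicle, 44.0, 46.4 and 39.0 in PE, 47.6, 50.2 and 46.5 in SenA50 and 56.3, 56.3 and 55.0 in PE+SenA50. Among these 4 groups the PE libraries lay below all others and the PE+SenA50 libraries above. The PE difference without inhibitor was -0.17 ± 0.068 (limma adjusted p = 0.061, and 0.029 with the replicate block), and PE+SenA50 against PE was 0.37 ± 0.068 (0.00023). The interaction was 0.39 ± 0.096 (limma adjusted p = 0.024), a call lost without Vehicle replicate 1 (0.053), PE+SenA50 replicate 1 (0.055) or SenA50 replicate 3 (0.056).

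**Figure D4:**
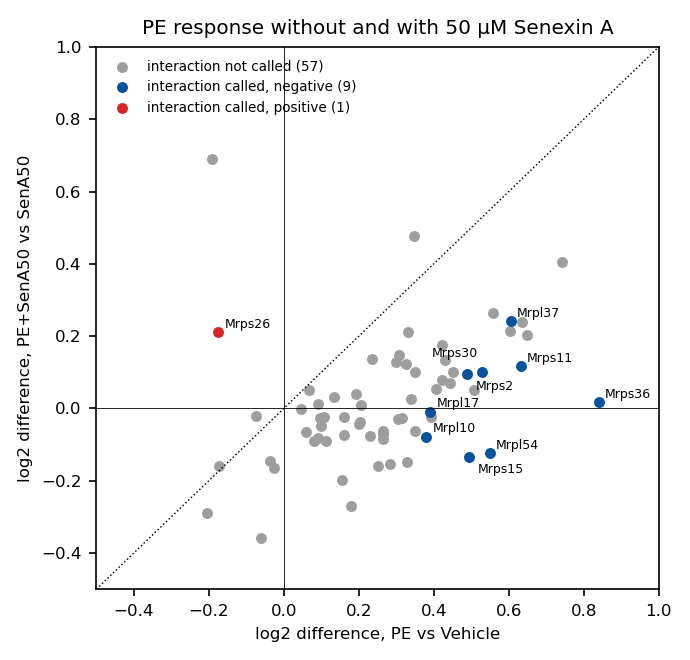
PE response of each of the 67 tested genes without inhibitor (horizontal axis, PE against Vehicle) and with it (vertical axis, PE+SenA50 against SenA50), both as differences in log2(FPKM + 1). The dotted line marks equal responses; the 9 genes with a negative interaction (blue) lie below it and Mrps26 (red) above it, and grey points are genes whose interaction was not called.

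The subunits and evolutionary classes were described next. With PE, 19 of 41 large-subunit and 12 of 25 small-subunit genes rose (medians 0.27 and 0.32), and with 50 µM alone 37 of 41 and 24 of 25 (medians 0.69 and 0.70). Of all 67 genes 47.76% rose with PE and 92.54% with 50 µM alone, and of all tested genes 17.9% and 30.5%. In the large subunit PE raised 7 of 23 genes with bacterial counterparts (median 0.16) and 12 of 18 found in mitochondrial ribosomes alone (median 0.33). In the small subunit the counts were 8 of 15 (median 0.33) and 4 of 10 (median 0.16), so the classes were in the opposite order. At 50 µM alone, 21 of 23, 16 of 18, 15 of 15 and 9 of 10 rose in these 4 classes, shares near that of the whole set. No class had a called fall. Differences between classes were not tested.

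Genes mutated in human mitochondrial cardiomyopathy were Mrpl3, Mrpl44, Mrps14 and Mrps22, and all 4 rose in SenA50 against Vehicle. So did 92.54% of the whole set and 30.5% of all tested genes, and the count does not set these 4 apart from the set. Mrpl3 rose by 0.88 ± 0.10 (limma adjusted p = 2.7e-06), from 65.7, 61.9 and 57.6 FPKM to 103, 129 and 112 FPKM, and Mrps22 by 0.70 ± 0.11 (4.8e-05). The rise of Mrps14 was 0.59 ± 0.10 (limma adjusted p = 0.00013), and that of Mrpl44, a large-subunit protein with a ribonuclease-like fold, was 0.31 ± 0.091 (0.0078), a call lost after quantile normalization (0.055). PE alone raised Mrps22 and Mrps14, the latter by 0.33 ± 0.10 (limma adjusted p = 0.024). Its call did not hold after quantile normalization (0.081) and without Vehicle replicate 3 (0.13), PE replicate 1 (0.095) or PE replicate 2 (0.079). In PE+SenA50 against PE, Mrpl3 rose by 0.73 ± 0.10 (limma adjusted p = 2.1e-05). Mrps22 differed there by 0.25 ± 0.11 (0.063, and 0.0095 with the block), Mrps14 by 0.11 ± 0.10 (0.37) and Mrpl44 by 0.16 ± 0.091 (0.15). The rise of Mrpl3 at 10 µM with PE, 0.39 ± 0.10 (limma adjusted p = 0.017), was lost without PE replicate 2 (0.064), PE replicate 3 (0.066) or PE+SenA10 replicate 2 (0.075).

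Mrpl12, Mrpl41, Mrps18a and Mrps30 complete the genes followed through all comparisons. Mrpl12 rose in each of the 5 comparisons, by 0.60 ± 0.12 with PE, 0.52 ± 0.12 and 0.47 ± 0.12 with 10 and 50 µM on PE, and 0.70 ± 0.12 and 0.86 ± 0.12 with 10 and 50 µM alone (limma adjusted p from 1.3e-05 to 0.0075). Mrps30 rose likewise in all 5, from 0.26 ± 0.077 with 10 µM on PE (0.029) to 0.73 ± 0.077 with 50 µM alone (7.7e-07), and the first of these was lost without PE replicate 3 (0.13), PE+SenA10 replicate 1 (0.06) or PE+SenA10 replicate 2 (0.11). Mrps18a rose with PE, with 50 µM alone (0.83 ± 0.13, limma adjusted p = 3e-05) and with 50 µM on PE (0.50 ± 0.13, 0.0031), and at 10 µM differed by 0.27 ± 0.13 on PE (0.15, and 0.0089 with the block) and 0.16 ± 0.13 alone (0.44). Mrpl41, a large-subunit protein found in mitochondria, rose with 50 µM alone by 0.57 ± 0.12 (limma adjusted p = 0.00051). Its rise with 50 µM on PE, 0.33 ± 0.12 (0.023), was lost after quantile normalization (0.065) and without PE replicate 3 (0.12) or PE+SenA50 replicate 2 (0.13). At 10 µM on PE it had 0.35 ± 0.12 (0.048), a call that did not hold without the filter (0.073), under median-ratio scaling (0.053), in the compared groups only (0.053) and without PE replicates 2 or 3 or any of the 3 PE+SenA10 libraries (0.059 to 0.21).

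The 3 rows in lower case all rose with 50 µM alone: mrpl24 rose from 19.5 ± 1.03 to 59.3 ± 2.08 FPKM (mean ± SD, n = 3), mrpl11 from 53.2 ± 2.39 to 112.0 ± 7.08 FPKM and mrpl9 from 44.9 ± 3.97 to 64.9 ± 5.20 FPKM (limma differences 1.56 ± 0.095, 1.06 ± 0.099 and 0.52 ± 0.10). Had it been in the set, mrpl24 would have shown its largest rise. Among 7 mitoribosomal proteins with other names, PE raised 3 and 50 µM alone raised 6. Dap3, a GTP-binding protein of the small subunit, rose with PE from 38.2 ± 2.51 to 64.96 ± 3.26 FPKM (0.75 ± 0.088, limma adjusted p = 1.4e-05) and had an interaction at 50 µM of -0.63 ± 0.12 (0.0068). Ict1, a peptidyl-tRNA hydrolase built into the large subunit, rose with 50 µM alone by 0.93 ± 0.10 (limma adjusted p = 1.1e-06).

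The genes that assemble and serve the ribosome are set beside the shares of all tested genes, which were 17.9% higher and 12.7% lower with PE, 29.3% and 27.4% with 50 µM on PE, and 30.5% and 30.2% with 50 µM alone. Of 20 tested genes for assembly and ribosomal RNA modification, PE raised 1 and lowered 4 (median 0.04), while 50 µM raised 13 and lowered 1 on PE (median 0.40) and raised 14 alone (median 0.31). Mrm1, a methyltransferase of mitochondrial ribosomal RNA, fell with PE from 5.98 ± 0.667 to 3.66 ± 0.447 FPKM (-0.58 ± 0.10, limma adjusted p = 0.00045). It rose with 50 µM on PE to 8.03 ± 0.578 FPKM (0.96 ± 0.10, limma adjusted p = 8.9e-07), and its interaction was 0.64 ± 0.14 (0.013). Fastkd2, which binds mitochondrial ribosomal RNA, rose with 50 µM alone by 0.99 ± 0.15 (limma adjusted p = 2.5e-05). Of 13 translation factors, PE raised 5, 50 µM on PE raised 7 and lowered 2, and 50 µM alone raised 9. Gfm1, the elongation factor that moves the ribosome along its messenger, rose with PE from 44.7 ± 1.499 to 91.9 ± 3.06 FPKM (1.02 ± 0.10, limma adjusted p = 3.3e-06). With 50 µM on PE it fell by 0.29 (limma adjusted p = 0.026), and its interaction was -0.88 ± 0.15 (0.0022). Tufm, the factor that delivers transfer RNAs, rose with PE by 0.70 ± 0.11 (limma adjusted p = 0.00018). Gfm2, which helps to split the ribosome after translation, rose with 50 µM alone by 1.06 ± 0.081 (3.3e-08).

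Among 15 mitochondrial aminoacyl-tRNA synthetases, which load transfer RNAs, PE raised 3, a share of 20% near that of all tested genes, 50 µM on PE raised 10 and 50 µM alone raised 10, with no fall in any of these. Rars2 rose by 1.17 ± 0.11 with 50 µM on PE (limma adjusted p = 3.1e-07) and Tars2 by 1.06 ± 0.074 with 50 µM alone (1.2e-08). Of 19 genes for transcription of mitochondrial DNA and handling of its RNA, PE raised 4 and lowered 3, near the shares of all tested genes, 50 µM on PE raised 12 and 50 µM alone raised 14. Lrpprc, which keeps mitochondrial messengers stable, rose from 43.8 ± 3.89 FPKM in Vehicle to 91.8 ± 11.2 FPKM in SenA50 (1.05 ± 0.11, limma adjusted p = 5.9e-07). Of 12 regulators of mitochondrial biogenesis, 50 µM alone raised 4 and lowered 1, and 33.33% rising is near the 30.5% of all tested genes. Esrra, a nuclear receptor that drives genes of oxidative metabolism, rose from 47.7 ± 0.866 to 123 ± 8.47 FPKM (1.35 ± 0.076, limma adjusted p = 2e-09), and Myc, a transcription factor that drives ribosome production and growth, from 7.35 ± 2.59 to 21.6 ± 5.46 FPKM (1.46 ± 0.30, 0.00057). Ppargc1b stood at 6.41 ± 0.728 FPKM in Vehicle, 18.9 ± 0.606 in SenA10 and 13.4 ± 2.17 in SenA50. Not called with 50 µM alone were 7 of the 12, and some regulators were flat or lower in SenA50 than in Vehicle. Gabpa went from 18.1 ± 0.585 to 12.8 ± 1.60 FPKM, Nrf1 from 8.92 ± 0.409 to 7.92 ± 1.46 and Yy1 from 40.6 ± 2.51 to 38.9 ± 2.72. Ppargc1a stood at 15.5 ± 1.64 FPKM in Vehicle, 33.7 ± 5.92 in SenA10 and 15.6 ± 6.15 in SenA50. Transcripts encoded in mitochondrial DNA were not analysed here.

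Other gene sets of the mitochondrion and the cytosolic ribosome gave a frame for these counts. Of all tested genes, 30.5% rose with 50 µM alone, 17.9% with PE, 9.17% with 10 µM alone and 29.3% with 50 µM on PE. With 50 µM on PE 27.4% fell, and a negative interaction at 50 µM was called for 4.76%. All sets rose nearly completely with 50 µM alone: 73 of 78 cytosolic ribosomal proteins (median 0.58), 73 of 80 nuclear subunits of oxidative phosphorylation (0.72) and 18 of 20 genes of mitochondrial protein import (0.64), beside the 62 of 67 here (0.70). The counts lay further apart in other comparisons. With PE 62 of 80 oxidative phosphorylation genes rose, 32 of 67 mitoribosomal genes, 9 of 20 import genes and 10 of 78 cytosolic ribosomal genes. With 10 µM alone the counts for these sets, listed as before, were 65 of 80, 23 of 67, 11 of 20 and 0 of 78. The import genes there had a larger share than the mitoribosomal genes, 55% against 34.33%. With 50 µM on PE 66 of 78 cytosolic ribosomal genes, 43 of 67 mitoribosomal genes, 13 of 20 import genes and 21 of 80 oxidative phosphorylation genes rose, and 7 of the last fell. The import genes thus had about the share of the mitoribosomal genes with PE and with 50 µM on PE. The 26.25% of oxidative phosphorylation genes that rose with 50 µM on PE lay near the share of all tested genes. The interaction at 50 µM was negative for 39 of 80 oxidative phosphorylation genes (median -0.66), 9 of 67 mitoribosomal genes (-0.29), 1 of 78 cytosolic ribosomal genes (-0.11) and 0 of 20 import genes (-0.22). Differences between sets were not tested.

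**Figure D5:**
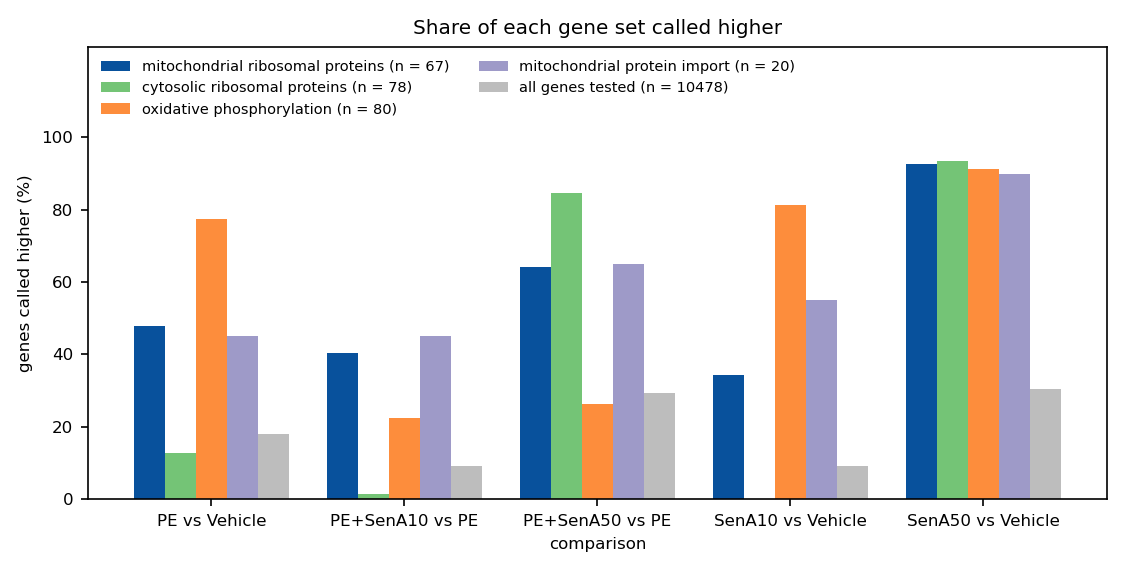
Percentage of the tested genes of each set called higher (vertical axis; limma adjusted p under 0.05) in 5 comparisons (horizontal axis), for mitochondrial ribosomal proteins, cytosolic ribosomal proteins, oxidative phosphorylation subunits, mitochondrial protein import and all 10478 tested genes. The bars of the 4 sets stand between 90% and 93.6% with 50 µM Senexin A alone; beside the mitoribosomal bar, the import bar stands at 45% against 47.76% with PE and at 65% against 64.18% with 50 µM on PE.

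Promoters were examined for short motifs of factors known to act on mitochondrial genes. RefSeq's table for the GRCr8 build, a later build than the rn5 of the expression values, held a promoter of 300 bases (250 before the start and 50 after it) for 54 of the 69 genes. Motifs were searched as letters on both strands. The NRF1 motif (GCGC, any base, then TGCGC) was in 8 of 54 promoters (14.8%, against 10.7% of the promoters of 8014 tested genes and 4.25% of all 33469 promoters in the table). The ETS motif CCGGAAG was in 18 (33.3%, against 18.7% and 8.75%), the YY1 motif ANATGGCGG in 9 (16.7%, against 5.29% and 2.03%) and the E-box CACGTG in 6 (11.1%, against 9.8% and 6.42%). The motif TGATGNAAT of ATF4 and C/EBP factors was in none of the 54 (against 0.412% and 1.09%). At least 1 of the 5 motifs was in 30 of the 54 promoters, and the matching share of all tested genes was not counted. These shares are descriptions of letters, and binding was not measured.

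The promoters of genes whose changes stood out are shown to let the motifs be seen in place. Each covers 170 bases before and 30 after the RefSeq start, 5′ to 3′ on the gene's strand, with motif matches in capitals. They are Mrps10, Mrpl37 and Mrps18b, of the largest rises at 50 µM, and Mrps18a and Mrps27, of the largest rises with PE, chosen because they hold a motif. Mrpl55 and Mrps11, also among the largest rises, have a promoter in the table with none of the 5 motifs, and Mrpl38, Mrps36 and Mrps22 have no entry.
Mrps10 (GRCr8 chr9:21122424-21122623, minus strand): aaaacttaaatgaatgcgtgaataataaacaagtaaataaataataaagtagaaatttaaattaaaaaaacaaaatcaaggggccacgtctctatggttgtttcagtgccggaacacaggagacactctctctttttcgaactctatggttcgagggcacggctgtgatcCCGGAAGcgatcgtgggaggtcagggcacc
Mrpl37 (GRCr8 chr5:127074938-127075137, minus strand): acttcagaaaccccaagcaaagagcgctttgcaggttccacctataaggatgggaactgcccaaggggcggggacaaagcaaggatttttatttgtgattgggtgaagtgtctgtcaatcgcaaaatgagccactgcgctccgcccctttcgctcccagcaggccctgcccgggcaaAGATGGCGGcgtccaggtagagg
Mrps18b (GRCr8 chr20:2842836-2843035, plus strand): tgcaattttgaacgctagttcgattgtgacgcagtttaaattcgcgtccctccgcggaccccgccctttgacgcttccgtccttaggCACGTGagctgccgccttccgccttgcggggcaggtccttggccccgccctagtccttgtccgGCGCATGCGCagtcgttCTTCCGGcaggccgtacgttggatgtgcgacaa
Mrps18a (GRCr8 chr9:22367351-22367550, minus strand): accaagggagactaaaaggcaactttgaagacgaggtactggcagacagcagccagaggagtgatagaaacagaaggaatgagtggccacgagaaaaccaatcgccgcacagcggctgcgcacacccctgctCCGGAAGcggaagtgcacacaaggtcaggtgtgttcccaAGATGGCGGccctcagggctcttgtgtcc
Mrps27 (GRCr8 chr2:32474034-32474233, plus strand): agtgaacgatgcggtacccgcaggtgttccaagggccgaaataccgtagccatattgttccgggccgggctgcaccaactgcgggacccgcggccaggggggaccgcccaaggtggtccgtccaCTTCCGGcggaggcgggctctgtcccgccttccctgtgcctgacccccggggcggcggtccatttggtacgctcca
The ETS motif stands at the start of Mrps10, and the YY1 motif just after the start of Mrpl37 and of Mrps18a. Mrps10 and Mrps27 hold the YY1 motif too, with its first base 31 and 30 bases after the start base and so past the stretch shown. Mrps18a also has an ETS motif upstream. Mrps18b holds an E-box, an NRF1 motif and an ETS motif on the opposite strand, and Mrps27 an ETS motif on the opposite strand.

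Some of these genes have a neighbour that starts nearby and is read the other way, and whether such pairs share a promoter was not tested. A start of another gene on the opposite strand lay within 1000 bases for 18 of the 54 genes (33.3%), against 17.4% of the tested genes. For 13 of the 18 the partner was tested and was no member. With 50 µM alone, 10 of those 13 mitoribosomal genes rose (median 0.69), while 4 of their 13 partners rose and 2 fell (median 0.11), against 30.5% and 30.2% of all tested genes. With 50 µM on PE 9 of 13 genes and 4 of 13 partners rose (medians 0.46 and 0.15), against 29.3% of all tested genes. The 9 include Mrpl30, which passed the filter only through the group where it is high, so its part in that count is a description. Mrpl46 and Mrps11 are partners of each other, with 233 bases between their starts, shown in full because this single stretch faces 2 members.
Mrpl46 to Mrps11 (GRCr8 chr1:142117031-142117263, plus strand): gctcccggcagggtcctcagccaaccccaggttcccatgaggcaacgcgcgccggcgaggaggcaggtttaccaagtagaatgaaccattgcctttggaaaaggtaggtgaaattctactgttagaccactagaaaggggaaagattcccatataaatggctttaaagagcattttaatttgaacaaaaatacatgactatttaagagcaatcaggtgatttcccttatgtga
It holds none of the 5 motifs, but Mrpl46 has a YY1 motif beyond it, with its first base 25 bases after the gene's own start base. Mrps11 rose with PE by 0.63 and with 50 µM alone by 0.47 ± 0.10 (limma adjusted p = 0.001). Mrpl46, a large-subunit protein found in mitochondria (rn5 chr1:141445108-141453185), differed with PE by 0.31 ± 0.12 (limma adjusted p = 0.061, and 0.025 with the block) and rose with 50 µM alone by 0.60 ± 0.12 (0.00044). With 50 µM on PE Mrpl46 rose by 0.43 ± 0.12 (limma adjusted p = 0.0056) and Mrps11 differed by -0.04 ± 0.10 (0.76), and the difference between the genes was not tested.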

How the data were processed

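The authors deposited 1 table of FPKM values for 18 libraries of polyadenylated RNA, made with Bowtie2 and Cufflinks on the rn5 build, per the submitters' processing notes; versions, annotation and strand setting are not given in the sources used here. Each column was matched to its sample by the library name in the labels. The smallest value is 0.01 FPKM, and 2766 of 17303 rows have it in every library. Absolute depth is unknown, so no counting interval is given.

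The 10478 rows that reached 1 FPKM in 3 or more libraries were taken as log2(FPKM + 1). They were fitted with limma 3.58.1 (R 4.3.3, intensity trend) with 1 mean for each of 6 groups and 12 residual degrees of freedom. The simulated data used to check the code drew each library independently, so they do not cover the pairing of libraries described below. Fold differences are on the log2(FPKM + 1) scale and understate the change of low genes. All p-values are two-sided and were adjusted by the Benjamini-Hochberg method over all tested rows in each of 11 comparisons, and a gene was called at an adjusted p under 0.05. Errors after ± are standard errors of the fit unless given as SD. Intervals of 95% use 15.99 moderated degrees of freedom.

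Libraries of 1 group correlated at 0.9937 to 0.99655, and none was a copy of another. Libraries with the same replicate number deviated together from their group means (45 pairs, r from 0.2132 to 0.5872, against -0.462 to 0.09486 for 90 pairs with different numbers), so the numbers were taken to pair the libraries. The labels do not say what the numbers share. For that reason the fit without the block was kept as the main one. Its counts, and the calls lost without single libraries, therefore leave the pairing out. With the block several counts were larger, as given with the results.

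The members, gene lists and tests were chosen with earlier results of these data known. Named genes are the 5 largest rises and falls among called members in each comparison of a treatment with its own background, up to 3 called interactions in each direction, the 3 highest and 3 lowest mean levels, called members against the majority where 5 or fewer, untested members and a fixed panel. From each pathway list up to 2 called genes per comparison were eligible. Alternatives were the replicate block, a pseudocount of 0.1, quantile normalization, a filter of 5 FPKM or none, median-ratio scaling, the compared groups only and leaving out each library. Promoters came from RefSeq's table for GRCr8, and no coordinates were converted between builds. Figures were drawn with matplotlib 3.10.9.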

Additional observations from a re-analysis of the deposited data

Results flagged for a closer look

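The response to PE differed with and without 50 µM Senexin A for 10 of the 67 tested genes by a test of the difference itself (the limma interaction, adjusted p under 0.05). Of all tested genes, 4.76% had a negative and 2.24% a positive call. The count of 10 became 1 to 21 when single libraries were left out. The interaction on the log2(FPKM + 1) scale was -0.82 for Mrps36, -0.67 for Mrpl54, -0.63 for Mrps15, -0.51 for Mrps11, -0.46 for Mrpl10, -0.43 for Mrps30, -0.40 for Mrpl17, -0.39 for Mrps2 and -0.36 for Mrpl37, and 0.39 for Mrps26. The adjusted p-values of Mrps2 and Mrpl37 were both 0.04995, at the edge of the threshold, and the locus of Mrps2 overlaps another row. The calls lost when single libraries were left out are given with the results for Mrps36, Mrpl54, Mrps30 and Mrps26.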

How the results depend on the processing

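The scaling alternatives moved the median of all tested genes by at most 0.049 (log2), but the differences of some members moved more. Quantile normalization took Mrpl41 in SenA50 against Vehicle from 0.57 to 0.37 and Mrps14 in PE against Vehicle from 0.33 to 0.22. The counts it gave in these 2 comparisons stand with the results. With the replicate block the count was 41 (main 27) in PE+SenA10 against PE, 41 (23) in SenA10 against Vehicle, 8 (5) in PE+SenA50 against SenA50 and 31 (10) in the interaction at 50 µM. In PE+SenA50 against SenA50 it was 3 under median-ratio scaling, 3 without the filter and 1 when only the compared groups were fitted, and in the interaction at 50 µM 6 with no filter and 6 in the compared groups only. Leaving out single libraries gave 21 to 32 in PE against Vehicle, 12 to 24 in PE+SenA10 against PE, 39 to 46 in PE+SenA50 against PE, 14 to 22 in SenA10 against Vehicle, 58 to 63 in SenA50 against Vehicle, 19 to 33 in PE+SenA10 against SenA10, 1 to 6 in PE+SenA50 against SenA50, 14 to 25 in PE+SenA50 against PE+SenA10, 35 to 45 in SenA50 against SenA10, 1 to 21 in the interaction at 50 µM and 0 to 0 in that at 10 µM. The cause was not tested. For the 53 called results of named members, 670 of 718 alternative values kept direction and call, 48 were no longer called (41 of them with 1 library left out) and 0 reversed. For 68 results of pathway genes, 858 of 919 kept both, 61 were no longer called and 0 reversed. Beside the values given with the results, the replicate block ended no call of a named member. Depth is unknown, so the precision of genes near the filter, such as Mrpl30, cannot be given from counts.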
